A study of Arabidopsis thaliana with 12 samples.

Results

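The genes AT2G04700, AT1G54500 and CCS encode plastid redox proteins. They were found as the single-gene probes that the platform annotation assigns to these names, 1 probe each, so the 3 genes are 3 of the 3438 features on the array and 3 of the 530 named genes that could be tested. AT2G04700 is the catalytic subunit of ferredoxin-thioredoxin reductase, AT1G54500 is a rubredoxin, and CCS (AT1G12520) is the copper chaperone of superoxide dismutase. No probe with several genes lists any of them. The 3 names were selected on the measured intensities of prors2 against wild type in these same samples, as earlier results of the comparison were known when they were picked. Their differences between the groups are therefore a description and carry no p-value.

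Arrays were hybridised with total RNA of 6 samples titled WT2_dark and 6 titled prors2_dark, from Arabidopsis thaliana of ecotype Columbia 0 that had spent the night in darkness. Per the labels, prors2 lacks prolyl-tRNA synthetase, which loads tRNA with proline. No other allele, transgene or agent is named, and the sources used here give neither the kind of allele nor the tissue, age or number of plants per sample. The groups come from the titles, because the source field calls all 12 samples wild type. No probe lists PRORS1 (AT5G52520, named OVA6 in the gene table), the likely mutated gene, so the label could not be checked on it. Of 15 marker loci of leaf, root, flower and seed, 1 has a probe of its own. That probe is for the leaf gene LHB1B2, a light-harvesting protein, at a mean deposited intensity of 37.99 ± 2.74 for wild type and 20.6 ± 5.21 for prors2 (SD, n = 6 each). The tissue could not be checked further.

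Plastids pass electrons from ferredoxin to small thioredoxins through ferredoxin-thioredoxin reductase, an iron-sulfur enzyme whose catalytic subunit splits a disulfide bond of the thioredoxin. Reduced thioredoxins switch on enzymes of carbon fixation in the light, and in the dark these enzymes return to their oxidised form. A second route, through the NADPH-dependent enzyme NTRC, takes its electrons from NADPH and can run in the dark. The plastid rubredoxin is a small iron protein anchored in the thylakoid membrane and is needed for the accumulation of photosystem II. CCS hands copper to the copper/zinc superoxide dismutases, which remove superoxide in the cytosol and the plastid.

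The whole signal distribution differed between the groups, and every value below has to be read with that. The median probe of an array had a deposited intensity between 0.0620 and 0.0852 in the wild-type samples and between 0.240 and 0.403 in the prors2 samples. From 746 to 926 probes were listed at 0 in a wild-type sample and from 431 to 609 in a prors2 sample. As deposited, the median log2 difference (prors2 minus wild type) over the 2684 features tested was 1.49. Within prors2, samples whose numbers follow each other (1 with 2, 3 with 4, 5 with 6) were alike, their deviations from the group mean correlating at 0.54 to 0.84. In wild type such samples correlated at -0.030 to 0.18, and with any other sample of their group at -0.15 at most (-0.22 in prors2). Array medians and counts of zeros were also close within these pairs in both groups, for example 791 zeros in each of wild-type samples 1 and 2. The labels do not say whether samples are separate plants or repeat readings, so a p-value covers the spread among these arrays alone, and that spread may be technical.

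In deposited units none of the 3 probes showed the upward shift of the median feature. That shift was smaller for bright features, with a median of 0.34 in the brightest of 4 level classes, to which AT1G54500 belongs. The intensities of AT2G04700 and CCS lay in the same range in both groups, and that of AT1G54500 was lower in prors2. Ranked within its array, or normalized to it, each of the 3 genes stood lower in every prors2 sample than in every wild-type sample, as did 15.9% of all features tested by rank and 13.2% after quantile normalization. Nothing is read from these counts, since the genes were picked with this contrast known. In such bulk samples, fewer cells of a type and less RNA per cell cannot be told apart.

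AT2G04700, the reductase subunit, had deposited intensities with a lowest value of 0.161, a median of 0.253 and a highest value of 0.297 in wild type. In prors2 the lowest was 0.231, the median 0.265 and the highest 0.294. The groups overlapped fully on this scale. All 6 prors2 values lay inside the wild-type range, and the low end of that range came from wild-type samples 1 and 2 (0.198 and 0.161). Mean intensities were 0.240 ± 0.0515 and 0.261 ± 0.0260 (wild type and prors2; SD, n = 6 each), a ratio of 1.09.

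AT1G54500, the rubredoxin, was the steadiest of the 3 in wild type. Its deposited intensity ran from 0.589 through a median of 0.647 to 0.707 in wild type, with a coefficient of variation of 6.37%. In prors2 it ran from 0.463 through 0.538 to 0.570. The groups did not overlap: every prors2 sample lay below the lowest wild-type sample, and prors2 samples 3 and 4 (0.463 and 0.473) lay lowest. Among the 2684 features tested, 3.20% had such a gap downward in deposited intensity and 52.5% a gap upward. Nothing is read from this for a gene picked with the result known. Mean intensities were 0.645 ± 0.0411 and 0.522 ± 0.0448 (wild type and prors2; SD, n = 6 each), a ratio of 0.810.

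CCS, the copper chaperone, had the widest relative spread in wild type. Deposited intensities ran from 0.0903 through a median of 0.147 to 0.211 in wild type and from 0.140 through 0.163 to 0.192 in prors2. All 6 prors2 values again lay inside the wild-type range. Wild-type samples 1 and 5 (0.0903 and 0.105) were low and samples 3 and 4 (0.211 and 0.185) high. The coefficient of variation was 31.7% in wild type and 12.8% in prors2. Mean intensities were 0.147 ± 0.0467 and 0.162 ± 0.0208 (SD, n = 6 each), a ratio of 1.10.

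**Figure D1:**
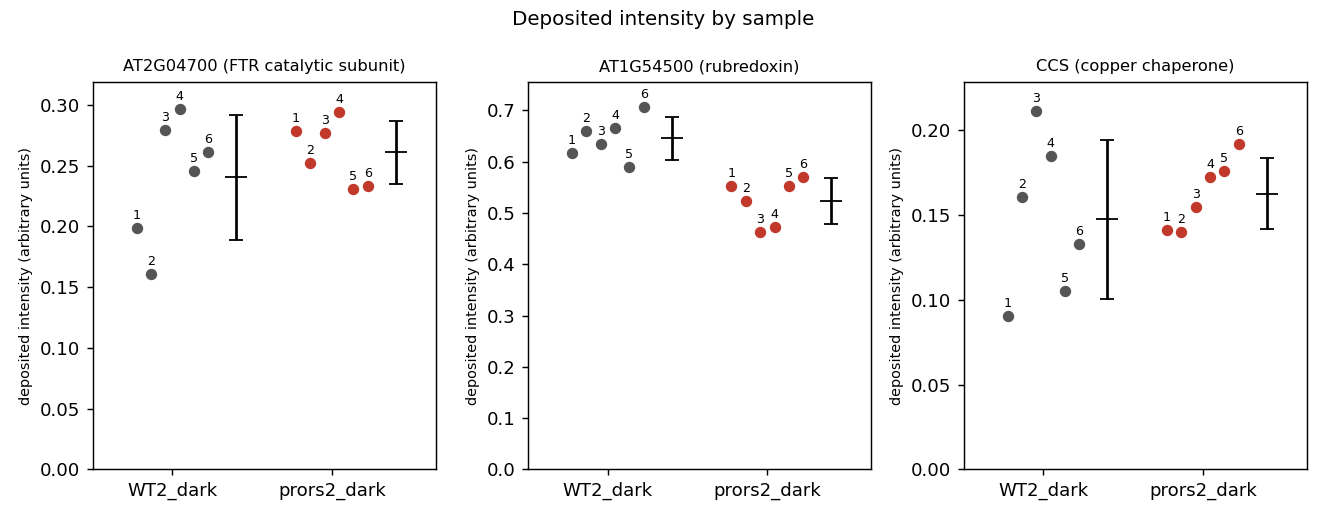
Deposited intensity (arbitrary units, axis from 0) of the 3 probes in each sample, with sample numbers beside the points and the mean ± SD (n = 6) as black bars. The prors2 values of AT2G04700 and CCS lie within the wild-type range, and those of AT1G54500 lie between 0.463 and 0.570, below the lowest wild-type value of 0.589.

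Set against the median probe of the same array, the 3 genes were lower in prors2 with no overlap of the groups, as were 33.9% of all features tested, while 7.30% were higher with no overlap. AT2G04700 stood at 1.94 to 4.59 times its array's median in wild type, with a median of 2.999, and at 0.638 to 1.21 times in prors2, with a median of 0.672. AT1G54500 stood at 7.04 to 10.3 times in wild type and 1.35 to 1.94 times in prors2. CCS stood at 1.13 to 3.41 times in wild type and 0.350 to 0.707 times in prors2. The reductase and chaperone probes were thus above the median of every wild-type array. CCS was below the median of every prors2 array, and AT2G04700 was below it in all prors2 arrays but samples 3 and 4. These multiples carry the difference in array medians with them.

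The order of probes within an array does not depend on any scaling that keeps their order. In wild type, AT2G04700 ranked at or above 64.9% to 79.0% of the probes, and in prors2 at or above 34.8% to 56.2%. AT1G54500 ranked at 85.1% to 88.3% in wild type and 60.9% to 72.1% in prors2. For CCS the ranks were 52.9% to 73.8% and 21.6% to 40.1%. The ranges of the groups did not overlap for any of the 3, as was the case downward for 15.9% of all features and upward for 12.1%. In prors2 all 3 genes ranked highest in samples 3 and 4, the prors2 arrays with the lowest medians and the most probes at 0. In wild type the same held for samples 3 and 4, which had the lowest medians and the most zeros of that group. The part of these array differences in the ranks was not tested.

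**Figure D2:**
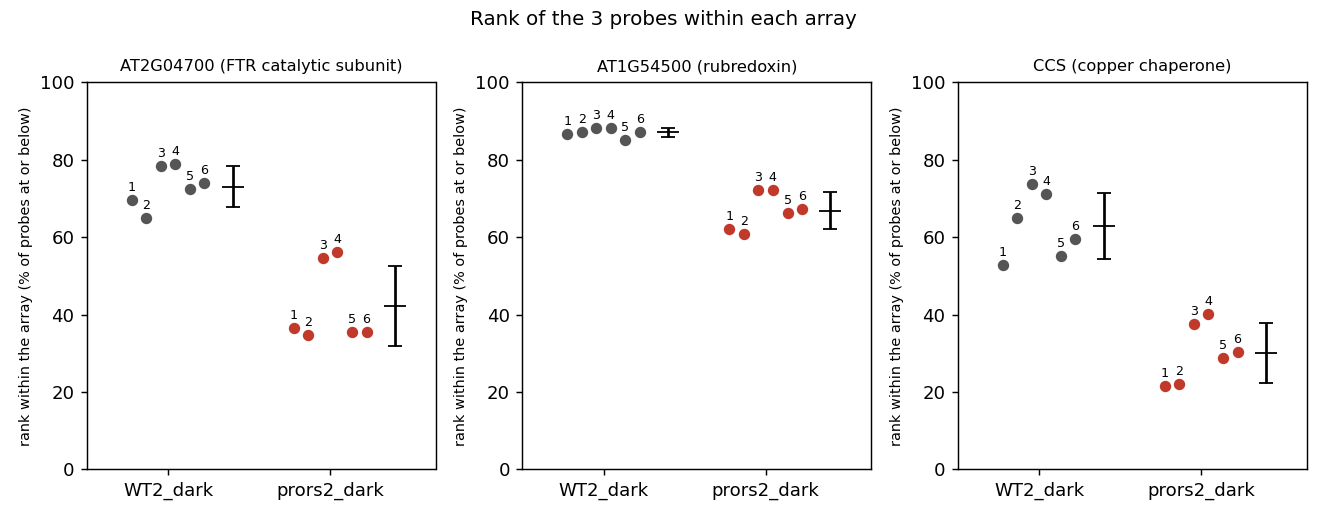
Rank of the 3 probes within each array, as the percentage of probes at or below them, by sample and with the mean ± SD (n = 6) as black bars. The highest prors2 rank lies below the lowest wild-type rank for each gene, and the numbers 3 and 4 lie highest in prors2.

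For the comparison of the groups over all features, values at 0 were treated as missing and the others taken to log2 and quantile-normalized, so that all arrays share 1 distribution. On this scale the means of AT2G04700 were -1.46 ± 0.30 for wild type and -2.91 ± 0.47 for prors2 (SD, n = 6 each). Their log2 difference, -1.45 (standard error 0.24), is 2.72-fold lower. AT1G54500 had means of -0.35 ± 0.10 and -1.63 ± 0.22 (SD, n = 6 each) and a difference of -1.28 with a standard error of 0.15, or 2.44-fold lower. CCS had means of -2.06 ± 0.43 and -3.76 ± 0.58 (SD, n = 6 each) and a difference of -1.70 with a standard error of 0.29, or 3.26-fold lower. Over all features tested the median difference was 0.09. Of these features, 7.94% had a lower difference than AT2G04700, 9.99% a lower one than AT1G54500 and 5.10% a lower one than CCS. The standard errors come from limma and treat the 12 samples as independent. With consecutive samples averaged (3 against 3) they were 0.37, 0.28 and 0.41.

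At an adjusted p under 0.05 (limma, Benjamini-Hochberg over all features tested) 45.6% of the features were called, 671 of them higher and 554 lower in prors2. The calls downward make up 20.6% of the features tested and hold the 3 genes, which were picked on this contrast. With consecutive samples averaged, 20.9% of 2459 features were called, 8.46% downward and 12.5% upward. The 3 genes are among the calls downward there too, which is no test of them. The normalized groups did not overlap for any of the 3, as was the case downward for 13.2% of all features and upward for 16.3%. Nothing is read from either count, since the genes were picked with this contrast known. The split of calls over all features turned with the scale. It was 1869 higher and 144 lower as deposited, and 653 higher and 905 lower with each array centred on its median.

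The size of the difference depended on the scale too. As deposited, the log2 differences were 0.14 (standard error 0.18) for AT2G04700, 0.19 (0.22) for CCS and -0.31 (0.12) for AT1G54500. Relative to the median difference of all features on that scale, they were -1.35, -1.30 and -1.80. With each array centred on its median they were -1.44, -1.39 and -1.89. The statement that the reductase and chaperone transcripts were lower in prors2 is thus one relative to the rest of the array, and it does not hold for their deposited intensities. With the tested features split by level into 4 classes of like size, median centring gave median differences of 0.55, 0.55, -0.14 and -1.24 from the dimmest class to the brightest. As deposited, the same classes had medians of 2.16, 2.13, 1.44 and 0.34. With quantile normalization they had -0.07, 0.38, 0.11 and 0.04. AT1G54500 belongs to the brightest class, AT2G04700 to the next and CCS to the one below that. Whether the level of a probe plays a part in these differences was not tested.

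**Figure D3:**
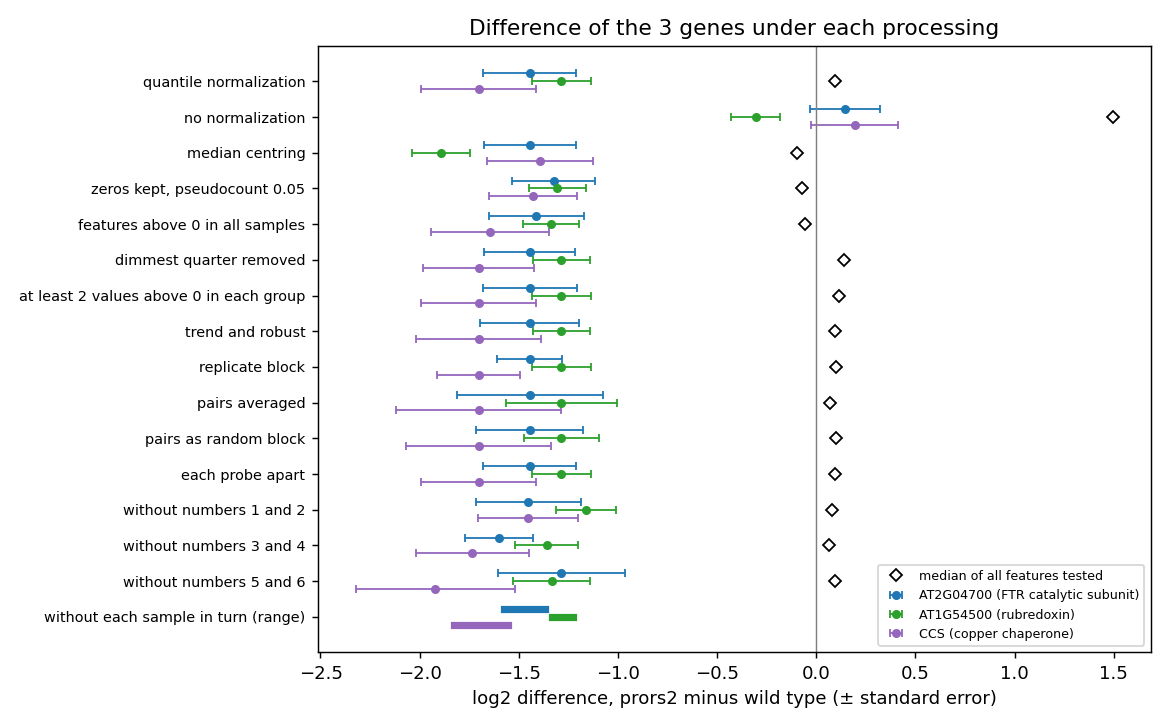
Log2 difference (prors2 minus wild type, ± standard error) of the 3 genes under each processing, with open diamonds for the median of all features tested and bars for the range when each sample is left out in turn. Without normalization AT2G04700 (0.14) and CCS (0.19) lie above 0 while the median feature lies at 1.49, and under the other settings all 3 genes lie between -1.92 and -1.16.

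Within sets of consecutive numbers the 3 genes kept their direction on the normalized scale, with differing sizes. For AT2G04700 the differences were -1.43 in numbers 1 and 2, -1.14 in 3 and 4, and -1.77 in 5 and 6. For AT1G54500 they were -1.53, -1.13 and -1.19. CCS varied most between the sets, with -2.20, -1.64 and -1.27. Consecutive prors2 samples lay close together for each gene, at most 0.13 apart on the log2 scale for AT2G04700, 0.07 for AT1G54500 and 0.17 for CCS. The means of the prors2 pairs spanned 0.94, 0.49 and 1.25. For CCS in wild type, samples 1 and 2 alone differed by 0.67, nearly as much as the 0.74 between the means of the pairs.

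The 3 genes were compared with each other and with other genes over the 12 samples, as a description. Likeness was measured as the root mean square difference between normalized log2 profiles, each centred on its own mean, among 367 other named genes above 0 in all samples. AT1G54500 was the gene most like AT2G04700, at 0.28, followed by DI21 at 0.29 and AT1G01500 at 0.29, where the median gene lay at 1.0005. The genes most like CCS were AT2G04700 at 0.38, AT1G54500 at 0.39 and AT4G00170 at 0.40, with the median gene at 1.14. For AT1G54500 they were AT5G53920 at 0.22, AT4G24090 at 0.23 and AT4G13550 at 0.24, with the median at 0.87. AT2G04700 came in place 10 and CCS in place 34 in that order. Among the genes like AT2G04700, CCS came in place 10. These profiles hold the difference between the groups, so genes with a like difference are near each other by construction. That holds for the 3 genes too, which were picked on this contrast. Likeness within each group was not measured. Of the 3 nearest to AT1G54500, AT5G53920 had mean deposited intensities of 0.961 ± 0.156 for wild type and 0.685 ± 0.118 for prors2, and AT4G24090 of 0.360 ± 0.0682 and 0.441 ± 0.0570 (SD, n = 6 each), so likeness on the normalized scale went with unlike directions as deposited.

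Few partners of the 3 proteins could be measured. The 7 lists of ferredoxin and thioredoxin proteins, thioredoxin target enzymes, superoxide dismutases, copper handling, peroxide removal, rubredoxin-like proteins and plastid iron-sulfur cluster assembly hold 82 loci. Of these, 8 have a probe of their own, 3 of them being the genes described above. No superoxide dismutase was among them, so none of the copper/zinc ones to which CCS delivers copper. No other copper or rubredoxin-like gene and no iron-sulfur assembly gene was among them either. Of the 4 other genes tested, 1 was called higher in prors2 and 0 lower, against 25.0% and 20.6% of all features. Their median log2 difference was 0.62, where all features had 0.09. NTRC, AT5G58330 and AT3G52960 belong to the same level class as CCS, where the median difference was 0.38. PRK belongs to the brightest class, where it was 0.04.

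The gene called was AT3G52960, the plastid peroxiredoxin IIE, which reduces peroxides. Its deposited intensity ran from 0 through a median of 0.0461 to 0.105 in wild type, and from 0.232 through 0.343 to 0.495 in prors2. The groups did not overlap as deposited, like 52.5% of all features. After normalization they did, and the 0 of wild-type sample 3 was left out of the fit. It rose by 0.94 on the log2 scale (standard error 0.32; limma, adjusted p = 0.0316). The call was lost without wild-type sample 4 (limma, adjusted p = 0.0594), 5 (0.0520) or 6 (0.0690), without prors2 sample 1 (0.0605), 2 (0.0590) or 3 (0.0516), with pairs averaged (0.130) or as a random block (0.0727), with zeros kept and a pseudocount (0.0907), without numbers 3 and 4 (0.0764) and without numbers 5 and 6 (0.178).

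NTRC (AT2G41680), the NADPH-dependent thioredoxin reductase that works beside the ferredoxin-dependent enzyme, had a normalized difference above 0, where that of AT2G04700 was below 0. As deposited, both were above 0. Its deposited intensity ran from 0.0430 through 0.0825 to 0.175 in wild type and from 0.343 through 0.446 to 0.577 in prors2. Every prors2 sample lay above every wild-type sample as deposited, like 52.5% of all features, and the groups overlapped after normalization. The normalized difference of 0.70 (standard error 0.31) did not pass (limma, adjusted p = 0.0834). It passed in 5 of 26 alternatives: without prors2 sample 2 (limma, adjusted p = 0.0395), without wild-type sample 6 (0.0426), without numbers 1 and 2 (0.0462), over features above 0 in all samples (0.0455) and, at 2.33, with no normalization (3.57e-05). The ratio of mean deposited intensities (prors2 over wild type) was 4.60 for NTRC and 1.09 for AT2G04700. With no normalization, the median log2 difference was 2.13 in the level class of NTRC and 1.44 in that of AT2G04700. The difference between the responses of the 2 reductases was not tested, since AT2G04700 was picked with its result known.

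Among enzymes that thioredoxins switch on, PRK, the phosphoribulokinase of carbon fixation, had deposited intensities from 3.39 through 4.47 to 4.85 in wild type and from 2.68 through 3.68 to 5.27 in prors2. The groups overlapped. Its normalized difference of 0.06 (standard error 0.18) did not pass (limma, adjusted p = 0.801). PRK passed as lower with each array centred on its median, at -1.85 (limma, adjusted p = 1.41e-06). In that setting the brightest class, to which PRK belongs, had a median difference of -1.24. AT5G58330, the NADP-dependent malate dehydrogenase that exports reducing power from the plastid, ran from 0.00621 through 0.111 to 0.137 in wild type and from 0.107 through 0.322 to 0.692 in prors2. Its prors2 samples 1 and 2 (0.638 and 0.692) were high and sample 3 (0.107) low. The normalized difference of 0.55 had a standard error of 0.64 (limma, adjusted p = 0.503), and it came to -0.0036 without wild-type sample 3 and to 0.0079 with zeros kept and a pseudocount. With no normalization it was 2.33 and passed (limma, adjusted p = 0.0146), on the scale where the median feature lay at 1.49. SBPASE, a phosphatase of carbon fixation, was not tested, being listed at 0 in all samples but wild-type sample 1 (0.0358).

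**Figure D4:**
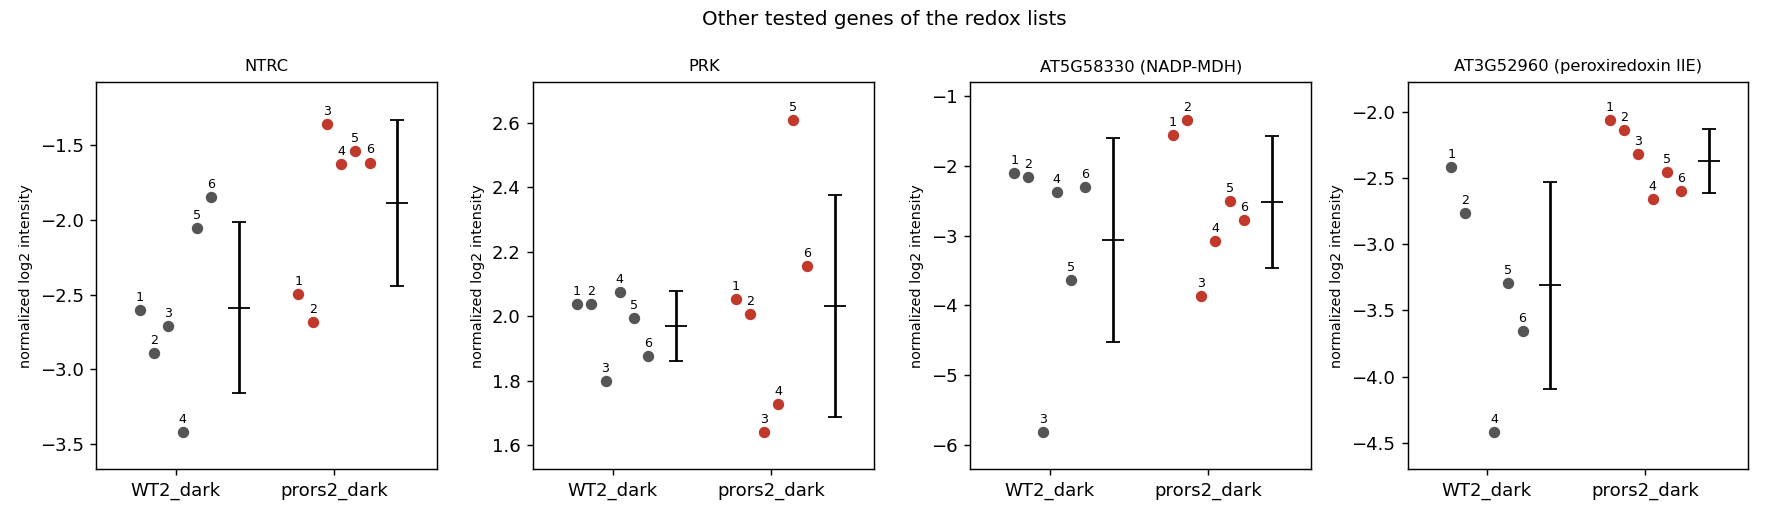
Normalized log2 intensity of the 4 other tested redox genes in each sample, with the mean ± SD as black bars (n = 6, and 5 for AT3G52960 in wild type, where a value at 0 is missing). The groups overlap for each of the 4 genes.

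**Figure D5:**
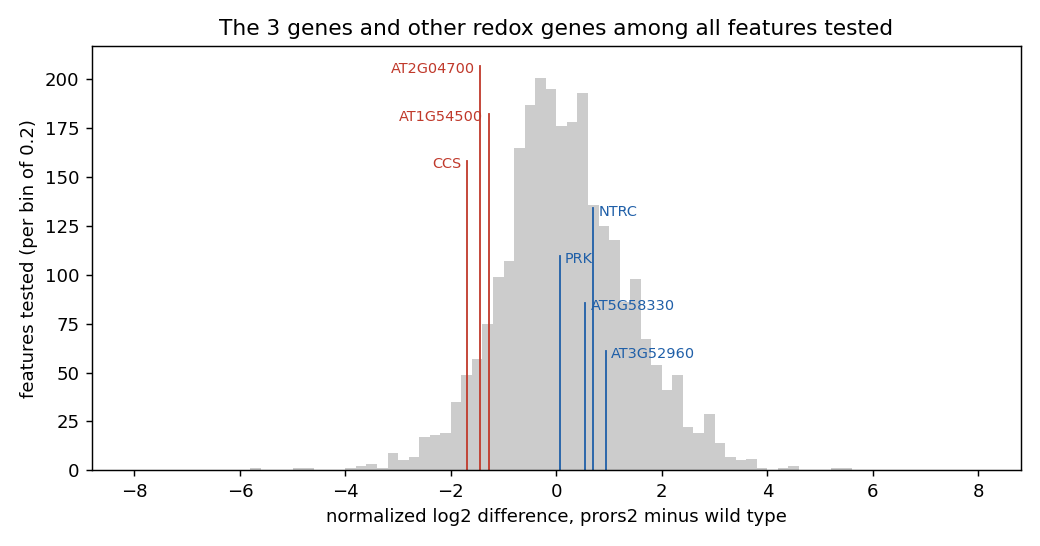
Histogram of the normalized log2 difference (prors2 minus wild type) over the 2684 features tested, with lines at the 3 genes (red) and at the other redox genes (blue). The 3 genes lie between -1.70 and -1.28, and the other 4 between 0.06 and 0.94.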

How the data were processed

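The deposited values are linear intensities of 3439 probes in 12 samples, from 0 to a ceiling shared by all samples. The sources used here do not say how the authors subtracted background, scaled or averaged spots. It therefore stays unknown whether the deposited intensities of different samples are comparable. Precision is limited by the number of arrays and by the number of separate plants or RNA samples behind them, which is not stated. The platform annotation gives 1 gene for 692 probes, several for 870 and does not list 1877, and 690 of the 692 matched the TAIR10.1 gene table, used for names.

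Zeros were set to missing, and log2 values were quantile-normalized and averaged over probes of a gene. Features needed 3 values above 0 per group, and the 2684 of 3438 that had them were fitted with lmFit and eBayes (limma 3.58.1, R 4.3.3), 2-sided, with Benjamini-Hochberg adjustment and a threshold of 0.05. The fit was tested on simulated data drawn independently for each sample. That test covers neither the likeness of consecutive samples nor the normalization. The 3 genes, the lists and the alternatives were chosen with earlier results of these data known. The genes named are the 3, from each list the up to 4 tested genes of lowest adjusted p, and the 3 genes most like each of the 3. The alternatives were another or no normalization, zeros kept with a pseudocount of 0.05, other filters, variance settings, blocks, averaged pairs and samples left out. No sequence is shown and no genome coordinate is given, as the deposited values name no build.

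Sample numbers were not taken as pairing the groups. The deviations of same-numbered samples correlated at 0.053 to 0.16 over 1940 features, above 0.1 for 4 of 6 numbers. In both groups samples 3 and 4 had the lowest array medians and the most zeros. No fit took the sets of consecutive numbers as shared between the groups.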

Additional observations from a re-analysis of the deposited data

Results flagged for a closer look

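Of 27 groups of 6 values examined among the 3 genes and the other redox genes, on the deposited and the normalized scale, 1 held a sample far from the rest. Chance alone flags about 1 group in 20 where values are independent, and here both scales hold the same samples. For PRK, the deposited intensity of wild-type sample 3 was 3.39, against 4.36 to 4.85 in its group's remaining samples. No group of AT2G04700, AT1G54500 or CCS held such a sample. The rule looks for a single sample far from the rest, so a pair that lies apart together can escape it. For AT2G04700, the normalized values of prors2 samples 3 and 4 were -2.34 and -2.25, against -3.30 to -3.17 in the remaining prors2 samples.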

How the results depend on the processing

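The normalized differences of the 3 genes were recomputed under 26 alternatives. Leaving out each sample in turn gave -1.58 to -1.37 for AT2G04700, -1.33 to -1.23 for AT1G54500 and -1.83 to -1.56 for CCS. With no normalization AT2G04700 turned to 0.14 and CCS to 0.19, and AT1G54500 moved to -0.31. With median centring AT1G54500 moved to -1.89. The shift of the array medians is part of these settings by construction. Under the other alternatives the differences of the 3 genes moved by less than their spread between replicates. With the sample number as a replicate block they were -1.45, -1.28 and -1.70, with standard errors of 0.16, 0.15 and 0.21. In that fit 669 features were called higher and 540 lower, and 1 redox gene was called. By their deviations, 4 of 6 wild-type samples were most like the prors2 sample of their own number.

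Over all features, the counts called higher and lower (limma, adjusted p under 0.05; 671 and 554) were 1869 and 144 with no normalization, 307 and 208 with pairs averaged and 358 and 313 with pairs as a random block. Median centring gave 905 lower, and leaving out numbers 5 and 6, which was added after the data were seen, gave 445 higher. Without each sample in turn there were 605 to 650 higher and 507 to 537 lower. The count of other redox genes called (1 of 4) was 3 with no normalization, 2 with median centring and 2 without numbers 1 and 2. It was 0 with the pseudocount, with pairs averaged, with pairs as a random block, without numbers 3 and 4 and without numbers 5 and 6, and 0 to 1 without each sample in turn. PRK, not called in the main comparison, was at -0.26 with no normalization, -1.85 with median centring, -0.13 with the pseudocount, -0.093 over features above 0 in all samples, -0.13 without numbers 5 and 6 and -0.054 without prors2 sample 5. AT5G58330 was at -0.0036 without wild-type sample 3, the lowest of its values without each sample in turn, the highest being 0.81. The cause of the other changes was not tested. Values near 0 limit AT3G52960 and AT5G58330, which are dim in wild type. CCS belongs to the same level class and is dim in prors2. Its normalized mean there (-3.76) lay below the wild-type means of AT3G52960 (-3.31) and AT5G58330 (-3.07). Whether this bears on the difference of CCS was not tested.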

Other observations

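A further redox gene has a probe of its own but belongs to none of the lists. It was found by searching gene names after the values had been seen. SRX, the sulfiredoxin that repairs overoxidised peroxiredoxins, had deposited intensities from 0 through a median of 0.0203 to 0.0810 in wild type and from 0.0635 through 0.160 to 0.769 in prors2. Its prors2 samples 1 and 2 (0.769 and 0.747) lay far above samples 3 to 6. The normalized log2 difference of 0.84 had a standard error of 0.76 and did not pass (limma, adjusted p = 0.386).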
